A study of Gallus gallus with 8 samples.

Results

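The LDL receptor family is described here through 9 genes: the receptors LRP8, VLDLR, LRP1, LRP2, LRP4, LRP5 and LRP6, the sorting receptor SORL1, and LRPAP1, the chaperone of many of these receptors. Its members were all probe sets whose only gene symbol in the platform annotation is 1 of these names, which gave 25 of the 38439 probe sets tested and 9 of 13009 genes. RNA came from chondrocytes of the tibiotarsus growth plate of the chick, the cartilage from which the main bone of the lower leg lengthens. There were 4 arrays of hypertrophic cells from chicks 1 day old and 4 of proliferative cells from chicks 3 weeks old, untreated and with no strain or genotype in the labels. The cells of each sample were pooled after isolation, and nothing in the labels says that arrays of a group hold separate birds or pools, so every p-value rests on a spread that may be technical. Age differs between the groups along with cell stage, and the effects of these cannot be told apart.

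Receptors of this family are single-pass membrane proteins with clustered ligand-binding repeats outside the cell and, in most members, a short tail that carries endocytosis signals. They take up lipoproteins, proteases bound to their inhibitors, and vitamin carriers, and several of them also pass signals inward. LRP8 and VLDLR are the receptors of reelin. LRP5 and LRP6 are the Wnt co-receptors, and LRP4 binds the Wnt antagonist sclerostin and, at the nerve-muscle junction, agrin. In bone, loss of LRP5 lowers and gain of LRP5 raises bone mass in humans.

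The family was chosen on the hypertrophic minus proliferative differences of these same arrays, that of LRP8 in particular, which were known when it was proposed. Differences of the 9 genes are therefore given as a description, with no p-value. Values are the authors' log2 RMA values, differences are hypertrophic minus proliferative, and the error after a difference is the standard error of a limma fit over all probe sets with n = 4 arrays per group. RMA compresses differences among dim probe sets. The background level of 4.75 comes from 744 probe sets for viral, reporter and other sequences with no annotated chicken gene: it is their 95th percentile on the array where that is highest. Both group means of 13 of the 25 probe sets lay below that level, 10 had both means above it, and 2 had only the hypertrophic mean above it. Levels of different probe sets are not compared, because probes differ in brightness.

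In both groups, arrays 3 and 4 hardly differed. Over 5344 probe sets with a mean above 8, the SD of the difference between them was 0.194 in hypertrophic and 0.175 in proliferative cells, against 0.365 to 0.958 for the other pairs of arrays within a group. Values of the family, and calls of the named partner genes past the threshold, are therefore also given after averaging arrays 3 and 4 of each group, or by pair of arrays. Of the chondrocyte markers, all 9 with a probe set were above background in both groups. By the brightest probe set 1 passed the test, MATN3, which was lower in hypertrophic cells. At an unadjusted limma p under 0.05, for which no share of all genes was computed, there were 6, of which MATN1 was higher. Of the 5 COL11A1 probe sets, 4 passed in the lower direction, though not the brightest. The summed linear level of the 9 markers ran from 112000 to 131000 on hypertrophic and from 140000 to 150000 on proliferative arrays. The cartilage collagen COL2A1 averaged 14.5 on hypertrophic and 14.7 on proliferative arrays, and its value on proliferative array 4 was the highest deposited. Equal expression is not read from values this near the top of the scale, those of COL10A1 below included. The proliferation marker MKI67 was lower in hypertrophic cells by 1.76 ± 0.28 on the log2 scale (limma adjusted p = 0.00763), and the phosphoprotein SPP1 higher by 2.77 ± 0.34 (limma adjusted p = 0.00225), while collagen X, COL10A1, which marks hypertrophy, was bright on all arrays, with means of 14.1 for hypertrophic and 13.4 for proliferative cells and a difference of 0.66 ± 0.43 (limma adjusted p = 0.444). With arrays 3 and 4 averaged, the differences of MKI67, SPP1 and COL10A1 were -1.61 ± 0.31, 2.71 ± 0.41 and 0.81 ± 0.50. COL10A1 read 11.99, 13.42, 14.14 and 14.07 on proliferative arrays 1 to 4, so arrays 3 and 4 lay within the hypertrophic range of 13.74 to 14.32. The collagenase MMP13 split likewise, at 4.19, 5.88, 8.73 and 8.56. The osteoblast markers IBSP and DMP1 were also lower on proliferative arrays 1 and 2, but SPP1 read 10.59, 11.73, 11.50 and 11.66. The proliferative group, the reference of every difference, was thus not uniform in such markers. Nor was the hypertrophic group uniform in some markers. On hypertrophic arrays 1 to 4, COL1A1 read 12.66, 12.62, 11.04 and 11.15, and MKI67 read 8.33, 8.09, 7.06 and 7.13. PHEX, an osteoblast marker, went the other way, at 4.66, 5.51, 8.30 and 7.92. The cause was not tested in either group. Some markers of other cells differed as well. The summed linear level of 9 osteoclast and macrophage markers ran from 3590 to 7520 on hypertrophic and from 776 to 1640 on proliferative arrays, with 3 higher (ATP6V0D2, CD74 and MMP9), 6 not past the test, and OCSTAMP below background in both groups. That of 8 osteoblast markers ran from 24200 to 36500 on hypertrophic and from 8320 to 13100 on proliferative arrays, with SPP1 higher and 7 not past the test, COL1A1 and COL1A2 among these with differences of -0.16 ± 0.37 and -0.48 ± 0.19. The COL1A1 difference was 0.64 between arrays 1 and 2 of the groups and -0.97 between arrays 3 and 4. A sum of linear levels weighs its brightest probe sets most. SPP1 was the brightest of the 8 on every hypertrophic array, with means of 14.1 on hypertrophic and 11.4 on proliferative arrays. The difference in this sum thus largely follows SPP1. Of the 9 osteoclast and macrophage markers, MMP9 was the brightest on every hypertrophic array. It read 5.67, 8.12, 9.49 and 9.46 on proliferative arrays 1 to 4. CSF1R, C1QA, C1QB and MARCO were among the 6 that did not pass. The part of the markers of other cells in the values of the family was not tested.

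By the brightest probe set of each gene, LRP4 and VLDLR lay past the threshold of an adjusted p of 0.05 with a higher level in hypertrophic cells, LRP8 lay past it with a lower level, and 6 genes did not reach it. Of all genes, 7.34% lay past the threshold higher and 5.6% lower, and nothing is read from the family's count because the contrast was known when the genes were chosen. The median difference of the 9 genes was 0.21, against -0.015 over all genes, but that median is the value of LRP1, whose probe set lay below background on all arrays. The ranges of the groups did not overlap for LRP4 and VLDLR in the higher direction or for LRP8 and LRP2 in the lower, against 10.6% and 9.67% of all genes. With arrays 3 and 4 averaged, LRP8 was the 1 gene of the 9 past the threshold, against 2.01% of genes higher and 1.24% lower, and again nothing is read from that count.

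**Figure D1:**
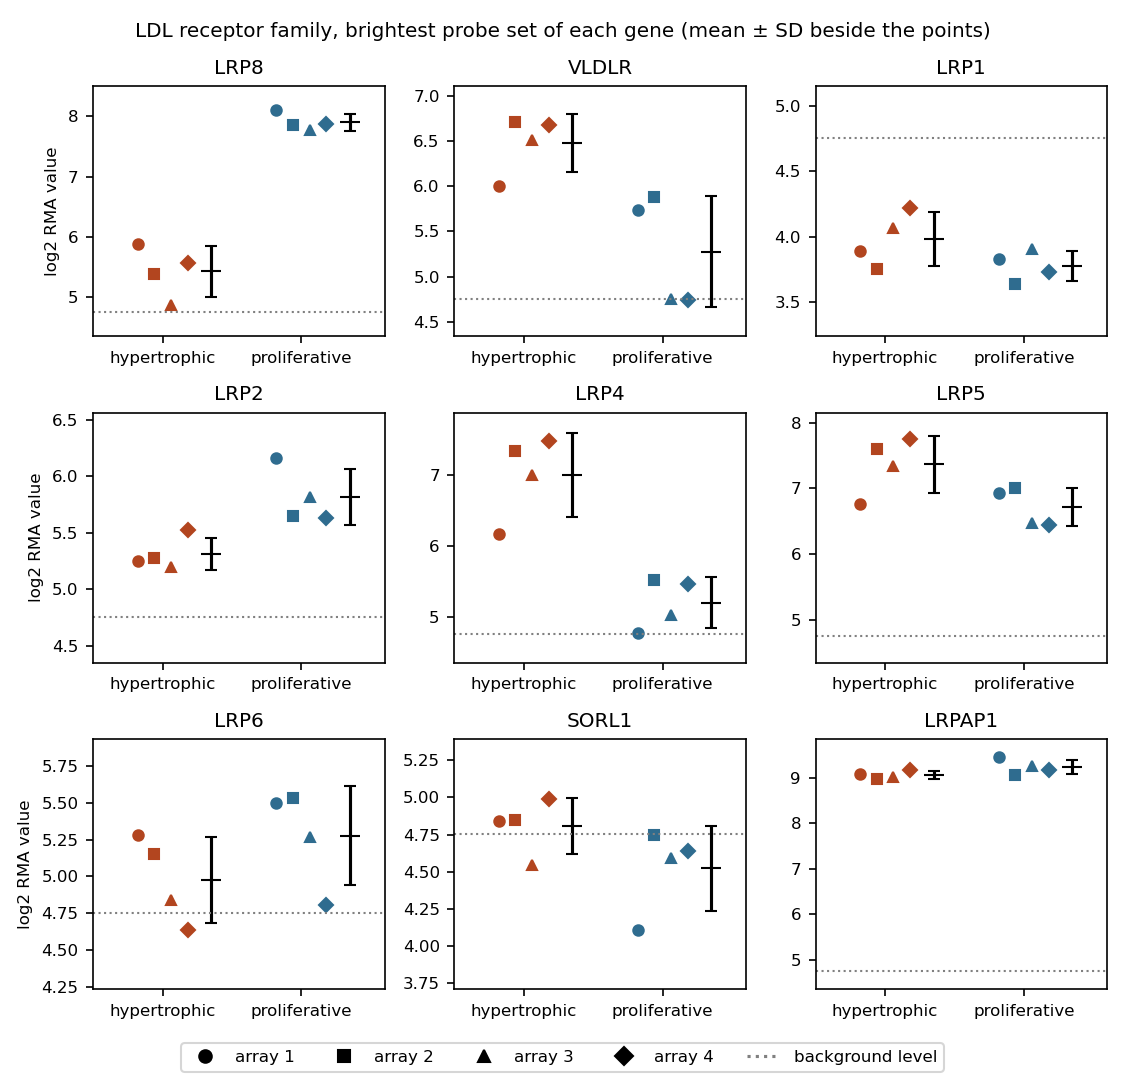
Log2 RMA value of the brightest probe set of each of the 9 genes (vertical axis, own range in each panel) on 4 hypertrophic (left) and 4 proliferative (right) arrays, with a marker shape for each array number, the mean ± SD beside the points and a dotted line at the background level of 4.75. The LRP8 points of hypertrophic cells lie between 4.88 and 5.88, all below the proliferative points, while all LRP1 points lie under the dotted line.

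Of the reelin receptors, LRP8, also known as apolipoprotein E receptor 2, had the largest difference of the 25 probe sets. Its single probe set read 5.88, 5.39, 4.88 and 5.57 on hypertrophic arrays 1 to 4, against 8.11, 7.86, 7.77 and 7.87 on proliferative arrays 1 to 4. The hypertrophic arrays were all low and above the background level, and the ranges lay 1.89 log2 units apart. It averaged 5.43 ± 0.42 on hypertrophic and 7.90 ± 0.14 on proliferative arrays (SD, n = 4 each), so the spread was wider where the gene was low. The difference was -2.47 ± 0.20, a level 5.55-fold lower in hypertrophic cells. It was -2.35 between arrays 1 and 2 of the groups, -2.60 between arrays 3 and 4, and -2.43 ± 0.20 with arrays 3 and 4 averaged. In pooled cells, fewer cells that express a gene and less of its RNA per cell cannot be told apart.

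VLDLR, the very-low-density lipoprotein receptor, which in hens carries yolk precursors into the growing oocyte, differed in the opposite direction. Its single probe set read 6.01, 6.71, 6.52 and 6.68 on hypertrophic arrays, against 5.74, 5.89, 4.75 and 4.74 on proliferative arrays. Proliferative arrays 3 and 4 sat at the background level, about 1 log2 unit below proliferative arrays 1 and 2, and hypertrophic array 1 came within 0.12 of proliferative array 2. It averaged 6.48 ± 0.33 on hypertrophic and 5.28 ± 0.62 on proliferative arrays (SD, n = 4 each), a difference of 1.20 ± 0.30, or 2.30-fold. Arrays 1 and 2 gave a difference of 0.55 and arrays 3 and 4 one of 1.86, and averaging arrays 3 and 4 gave 0.99 ± 0.34. When 1 array was left out, the difference lay between 1.03 and 1.41, and VLDLR missed the threshold without hypertrophic array 2, 3 or 4 or proliferative array 3 or 4.

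Endothelial cells are also known to carry VLDLR, and some endothelial markers differed between the groups. Of the 10 measured markers, 3 were higher in hypertrophic cells (CDH5, TEK and VWF) and 7 did not pass, among them KDR and EMCN, which lay below background in both groups. Of all genes, 7.34% were higher. These calls go by the brightest probe set. Of the 3 PECAM1 probe sets, 2 passed in the higher direction, though not the brightest, while TEK passed with 1 of 2 and VWF with 1 of 3. The summed linear level of the list ran from 1040 to 1260 on hypertrophic arrays and from 618 to 830 on proliferative arrays. Its part in the VLDLR values was not tested.

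On the side of the Wnt co-receptors, LRP4 had the largest positive difference of the family. Its brightest probe set read 6.17, 7.34, 7.002 and 7.48 on hypertrophic arrays, against 4.77, 5.52, 5.03 and 5.47 on proliferative arrays. Hypertrophic array 1 was the lowest of its group, and it still lay 0.65 above the highest proliferative array. The difference was 1.80 ± 0.29, a level 3.49-fold higher in hypertrophic cells, with 1.61 from arrays 1 and 2, 1.99 from arrays 3 and 4, and 1.74 ± 0.35 with arrays 3 and 4 averaged. When 1 array was left out, the difference lay between 1.64 and 2.08, and LRP4 missed the threshold with arrays 3 and 4 averaged and with arrays 1 and 2 alone.

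The other three LRP4 probe sets were dimmer and did not share that size. The second read 4.27, 4.89, 5.21 and 5.56 on hypertrophic arrays, against 4.46, 4.54, 4.35 and 4.44 on proliferative arrays. Hypertrophic array 1 was thus below all proliferative arrays, and the remaining hypertrophic arrays were above them. Its difference was 0.53 ± 0.24, or 0.35 with each array set to at least the background level. Both group means of the dimmest pair lay below background, with differences of 0.14 ± 0.22 and -0.14 ± 0.14. Averaged over the gene's 4 probe sets, the LRP4 difference was 0.58 ± 0.18, short of the threshold.

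All 3 LRP5 probe sets had both means above background and a positive difference, and the ranges of the groups overlapped in each. The brightest read 6.76, 7.60, 7.34 and 7.75 on hypertrophic arrays, against 6.92, 7.01, 6.48 and 6.45 on proliferative arrays. Hypertrophic array 1 lay below proliferative arrays 1 and 2, and the rest of the hypertrophic arrays lay above the proliferative range. The difference was 0.65 ± 0.23, with 0.21 from arrays 1 and 2 and 1.08 from arrays 3 and 4. The dimmer pair of probe sets differed by 0.23 ± 0.22 and 0.33 ± 0.17. When 1 array was left out, the difference of the brightest lay between 0.52 and 0.85, the highest without hypertrophic array 1, where LRP5 passed the threshold.

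LRP6, the Wnt co-receptor most like LRP5, had 3 probe sets, each with a small negative difference. The brightest read 5.28, 5.15, 4.84 and 4.63 on hypertrophic arrays, against 5.50, 5.53, 5.27 and 4.81 on proliferative arrays. Array 4 was the lowest of its group in both, and the ranges overlapped. Differences of the 3 probe sets were -0.30 ± 0.20, -0.073 ± 0.10 and -0.30 ± 0.15, and both means of the dimmest lay below background. Whether LRP5 and LRP6 differ from each other in their response was not tested.

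**Figure D2:**
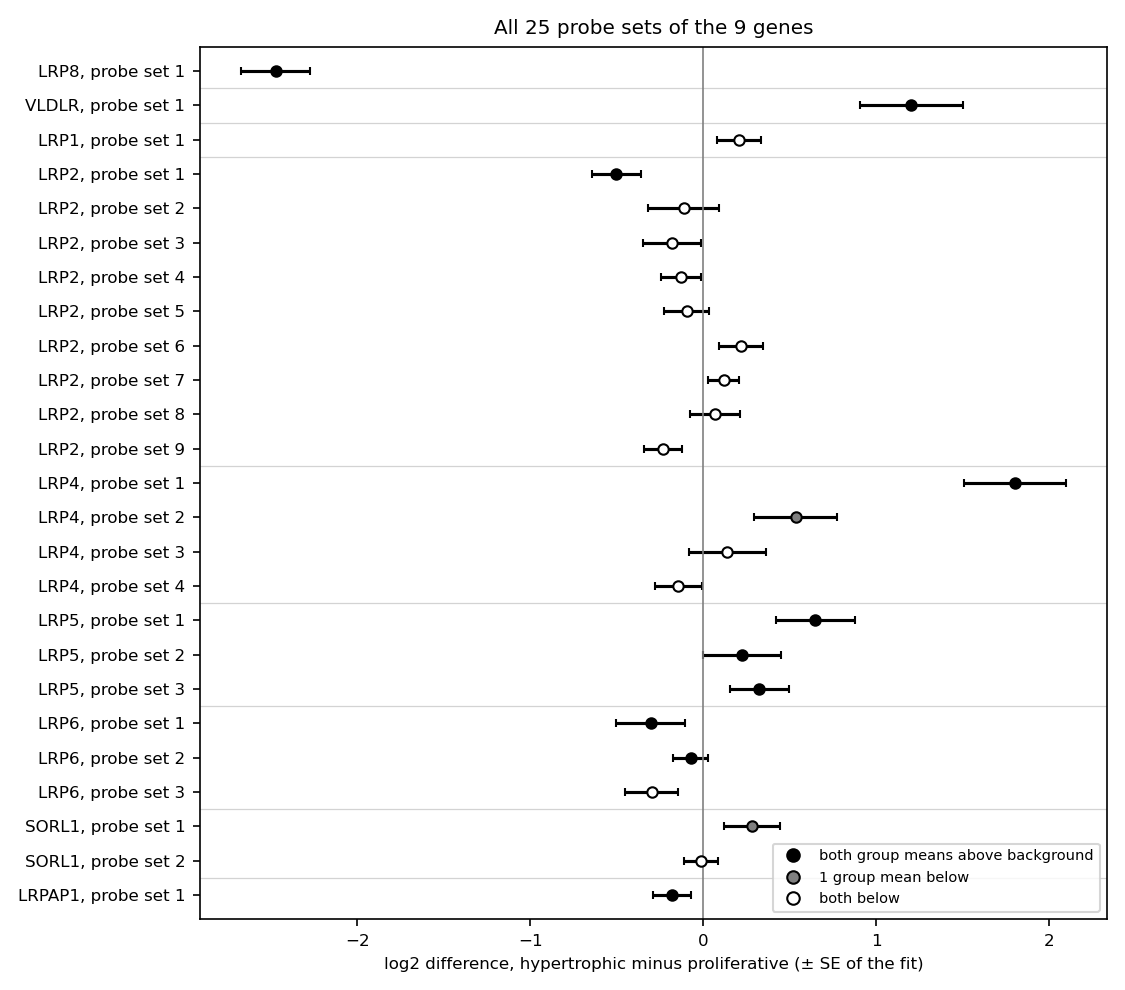
Log2 difference, hypertrophic minus proliferative, of each of the 25 probe sets (1 row each, numbered within a gene from the brightest), with the standard error of the fit, and filled, grey or open circles for both, 1 or no group mean above background. LRP8 lies farthest from 0 at -2.47, the brightest LRP4 probe set lies at 1.80, and the 8 dimmer LRP2 probe sets are all open circles within 0.23 of 0.

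Most probe sets of the large scavenger receptors LRP1 and LRP2 lay below background. LRP1, which clears protease complexes and matrix proteases from the cell surface, had 1 probe set, whose values ran from 3.75 to 4.22 on hypertrophic arrays and from 3.64 to 3.90 on proliferative arrays. All 8 values lay below the background level, so its difference of 0.21 ± 0.13 is not a measurement on either side, and the probe set gives no level for this gene in these cells. LRP2, or megalin, the endocytic receptor of kidney and other absorptive epithelia, had 9 probe sets, the most of the family. Of these, 8 had both means below background, with values from 2.73 to 4.88 and differences of both signs, 3 positive and 5 negative.

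The brightest LRP2 probe set read 5.25, 5.27, 5.20 and 5.52 on hypertrophic arrays, against 6.16, 5.65, 5.82 and 5.63 on proliferative arrays. All hypertrophic arrays were lower than all proliferative arrays, by a gap of 0.11. Its difference was -0.50 ± 0.14, and lay between -0.57 and -0.39 when 1 array was left out. The co-receptor CUBN and its partner AMN, which act with megalin in absorptive epithelia, differed by -0.031 ± 0.14 and 0.090 ± 0.13 (limma adjusted p = 0.941 and 0.770).

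SORL1, which sorts cargo between the Golgi and endosomes and joins the family's repeats to a Vps10 domain, had a pair of probe sets close to background. The brighter read 4.84, 4.85, 4.55 and 4.99 on hypertrophic arrays, against 4.11, 4.75, 4.59 and 4.64 on proliferative arrays. The hypertrophic arrays other than array 3 lay above background and all the proliferative arrays below it, array 1 the farthest. The difference was 0.28 ± 0.16, or 0.11 with each array set to at least the background level, and the dimmer probe set differed by -0.011 ± 0.10. LRPAP1, the chaperone that keeps newly made receptors from binding ligands in the endoplasmic reticulum, was well above background on all arrays. It read 9.08, 8.96, 9.003 and 9.16 on hypertrophic arrays, against 9.44, 9.06, 9.25 and 9.17 on proliferative arrays. Proliferative array 1 was the highest, the ranges overlapped, and the difference was -0.18 ± 0.11, a fold of 1.13.

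**Figure D3:**
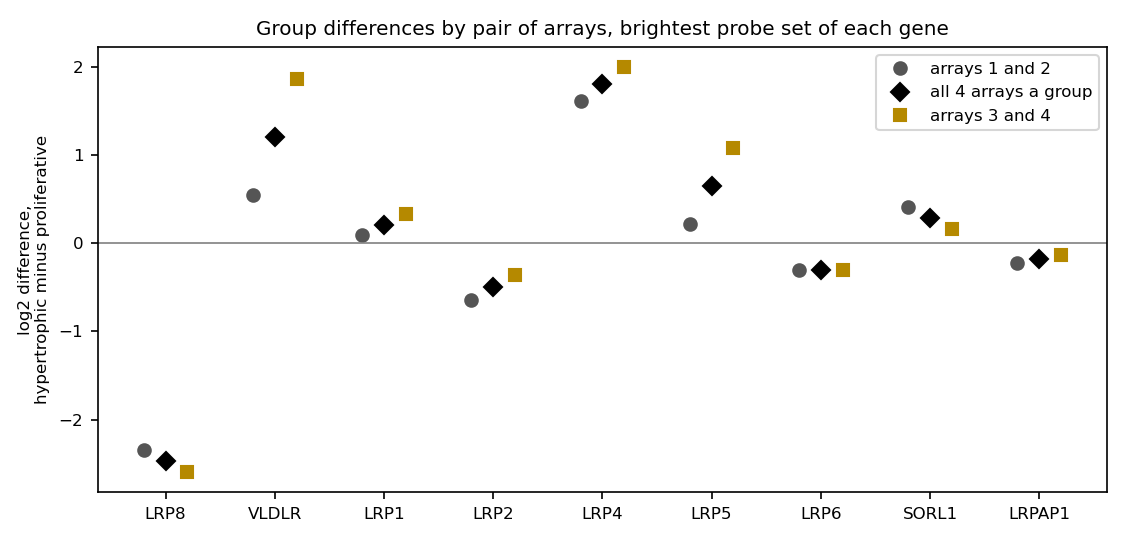
Log2 difference, hypertrophic minus proliferative, of the brightest probe set of each gene (vertical axis), from arrays 1 and 2 of each group (circles), all 4 arrays (diamonds) and arrays 3 and 4 (squares). The 3 marks of LRP8 lie between -2.60 and -2.35, while those of VLDLR spread from 0.55 to 1.86 and those of LRP5 from 0.21 to 1.08.

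Within the hypertrophic group, array 1 lay nearest the proliferative arrays in LRP8, VLDLR, LRP4 and LRP5. It was the highest of its group for LRP8 and the lowest for the other three. Over bright probe sets the same array was far from hypertrophic arrays 3 and 4, with SDs of the difference of 0.958 and 0.932, and nearer to array 2, with 0.506.

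Genes that bind, carry, make or cut these receptors were read from 5 lists with 190 genes, of which 152 had a probe set with that symbol alone. The lists were written with earlier results of these arrays known. By limma with adjustment over all probe sets, 22 of the 152 were higher in hypertrophic cells, 14 were lower and 116 did not pass, against 7.34% of all genes higher and 5.6% lower. With arrays 3 and 4 averaged, 11 were higher and 3 lower, against 2.01% and 1.24% of all genes. The median difference of the 152 was -0.015, the same as over all genes.

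Of the 5 lists, the ligands held the largest share past the threshold, 15 of 37 measured genes or 40.5%, against 12.9% of all genes. Of these, 11 were higher and 4 lower, and the median of the list was -0.035. With arrays 3 and 4 averaged, 6 were higher and 1 lower, against 2.01% and 1.24% of all genes. The list was written with earlier results of these arrays known, so nothing is read from its share. The heparin-binding growth factor pleiotrophin, PTN, a ligand of LRP1, read 9.49, 9.41, 8.74 and 9.29 on hypertrophic arrays, against 3.66, 3.79, 3.34 and 3.88 on proliferative arrays. All its proliferative values lay below background, so by this brightest probe set PTN rose by at least 4.48 (estimate 5.56 ± 0.19, limma adjusted p = 5.5e-06). Its dimmer pair of probe sets, also below background in proliferative cells, rose by at least 0.988 and 0.987. Their estimates were 2.18 ± 0.29 and 2.22 ± 0.16 (limma adjusted p = 0.00354 and 3.37e-04). Midkine, MDK, which is related to PTN and binds LRP1 and LRP6, rose by at least 3.15 (estimate 3.31 ± 0.39, limma adjusted p = 0.00209). These bounds concern the estimates and leave out sampling error. The amyloid precursor protein APP, whose traffic SORL1 controls, averaged 11.1 ± 0.80 on hypertrophic and 7.83 ± 0.42 on proliferative arrays (SD, n = 4 each), and rose by 3.30 ± 0.38 (limma adjusted p = 0.00179). PTN, MDK and APP still passed with arrays 3 and 4 averaged (limma adjusted p = 1.33e-04, 0.0286 and 0.0255). The collagenase MMP13, which LRP1 clears, rose by 3.81 ± 1.00 (limma adjusted p = 0.0483), but passed in 1 of 8 fits that left out 1 array, without hypertrophic array 1, and not with arrays 3 and 4 averaged (limma adjusted p = 0.124).

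RELN, which encodes reelin, the signalling ligand of LRP8 and VLDLR, had probe sets that disagreed. The one with the higher mean read 5.55, 5.36, 5.48 and 5.81 on hypertrophic arrays, against 5.57, 5.64, 5.64 and 5.76 on proliferative arrays, a difference of -0.10 ± 0.12 that did not pass (limma adjusted p = 0.709). The other read 5.75, 6.29, 6.01 and 6.29 on hypertrophic arrays, against 3.75, 4.68, 5.33 and 5.33 on proliferative arrays, and rose by 1.31 ± 0.33 (limma adjusted p = 0.0433). In that probe set the groups did not overlap, but it passed in 2 of 8 fits that left out 1 array, without hypertrophic array 1 or proliferative array 1, and averaging arrays 3 and 4 ended the call (limma adjusted p = 0.118). Clusterin, CLU, and thrombospondin 1, THBS1, which also bind LRP8 and VLDLR, were named after their values were seen, and no direction of these ligands as a group is drawn from them. CLU rose by 2.05 ± 0.16 (limma adjusted p = 3.37e-04), and THBS1 fell by 2.08 ± 0.30 (limma adjusted p = 0.00433). Both still passed with arrays 3 and 4 averaged (limma adjusted p = 0.00846 and 0.0345). DAB1, the adaptor that carries the reelin signal from the receptor tails, lay below background in both groups with both of its probe sets, with differences of -0.17 ± 0.094 and 0.32 ± 0.16 (limma adjusted p = 0.341 and 0.270).

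Among 15 measured related receptors, 1 rose, 3 fell and 11 did not pass, and 6 had both means below background. That is 26.7% past the threshold against 12.9% of all genes. LRP11 read 6.34, 7.32, 7.43 and 7.71 on hypertrophic arrays, against 5.18, 5.10, 5.33 and 5.38 on proliferative arrays, and rose by 1.95 ± 0.26 (limma adjusted p = 0.00343). Its second probe set, below background in proliferative cells, passed in the same direction, and its last pair, below background in both groups, did not pass. LRP12 read 6.95, 6.68, 7.21 and 7.26 on hypertrophic arrays, against 8.46, 8.12, 8.43 and 8.29 on proliferative arrays, and fell by 1.30 ± 0.15 (limma adjusted p = 0.00186), with a second probe set that fell by 1.56 ± 0.29. By their brightest probe sets, LRP11 and LRP12 still passed with arrays 3 and 4 averaged (limma adjusted p = 0.0395 and 0.0219). LDLRAD3, which carries the family's ligand-binding repeats, fell by 0.84 ± 0.20 (limma adjusted p = 0.0336), and the high-density lipoprotein receptor SCARB1 fell by 0.74 ± 0.19 (limma adjusted p = 0.0474). LDLRAD3 and SCARB1 each passed in 2 of 8 fits that left out 1 array (without hypertrophic array 1 or proliferative array 1, and without hypertrophic array 1 or 2), and neither passed with arrays 3 and 4 averaged (limma adjusted p = 0.144 and 0.212), although a second LDLRAD3 probe set then passed (limma adjusted p = 0.0177). The chaperone MESD and the Wnt antagonist DKK1 were not analysed here for lack of a probe set annotated to them alone.

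Of 37 chaperones, adaptors and endocytic sorting genes, 1 rose, 1 fell and 35 did not pass, which is 5.41% past the threshold against 12.9% of all genes. GULP1, an engulfment adaptor that binds the LRP1 tail, rose by 1.15 ± 0.14 by its brightest probe set (limma adjusted p = 0.0023), while its other three, all below background in both groups, did not pass. The brightest GULP1 probe set still passed with arrays 3 and 4 averaged (limma adjusted p = 0.026). RAPGEF1, an exchange factor downstream of reelin, fell by 0.58 ± 0.15 (limma adjusted p = 0.0460), and 3 further probe sets of it passed in the same direction. Its brightest probe set passed in 1 of 8 fits that left out 1 array, without hypertrophic array 1, and not with arrays 3 and 4 averaged (limma adjusted p = 0.140). The 3 further probe sets passed in 8, 5 and 3 of 8 such fits. They did not pass with arrays 3 and 4 averaged (limma adjusted p = 0.0784, 0.0644 and 0.0844).

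Of 24 genes for synthesis, degradation and shedding of the receptors, 2 rose and 2 fell, which is 16.7% past the threshold against 12.9% of all genes. The proprotein convertase FURIN, which cleaves LRP1 into its mature chains, fell by 1.10 ± 0.18 (limma adjusted p = 0.00833). INSIG1, which holds back sterol-responsive transcription factors in the endoplasmic reticulum, fell by 0.87 ± 0.20 (limma adjusted p = 0.0319). The sheddase ADAM10 rose by 1.48 ± 0.26 (limma adjusted p = 0.0116), and its second probe set differed by 0.91 ± 0.29 (limma adjusted p = 0.0953). GPIHBP1, which in mammals holds lipoprotein lipase on capillary endothelium, rose by 3.56 ± 0.92 (limma adjusted p = 0.0450). Its proliferative values were 4.40 and 5.80 on arrays 1 and 2 and 8.21 and 8.08 on arrays 3 and 4, and it passed in 1 of 8 fits that left out 1 array, without hypertrophic array 1. The brightest INSIG1 probe set passed in 3 of 8, without hypertrophic array 1, 3 or 4. Its second probe set fell by 1.08 ± 0.34 (limma adjusted p = 0.0868). The third fell by 1.21 ± 0.19 (limma adjusted p = 0.0076) and passed in 8 of 8, but not with arrays 3 and 4 averaged (limma adjusted p = 0.0699). With arrays 3 and 4 averaged FURIN still passed (limma adjusted p = 0.0465), while INSIG1, ADAM10 and GPIHBP1 did not (limma adjusted p = 0.110, 0.0799 and 0.130). As given with VLDLR, 3 of 10 endothelial markers were higher in hypertrophic cells, and their part in the GPIHBP1 values was not tested.

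On the Wnt and sclerostin side of LRP4, LRP5 and LRP6, 7 of 39 measured genes rose and 4 fell, 28.2% past the threshold against 12.9% of all genes. The median of the list was 0.076. Both means of 8 genes lay below background, among them RSPO2, which is counted as higher. With arrays 3 and 4 averaged, 3 rose and none fell by limma, against 2.01% and 1.24% of all genes. At an unadjusted p under 0.05, 12 were then higher and 6 lower by limma. The share of all genes at that unadjusted level was not computed, so nothing is read from these counts. The secreted antagonist WIF1, which binds Wnt ligands, read 6.63, 8.998 and 10.2 on hypertrophic arrays 1 to 3 and 9.88 on array 4, against 5.10, 4.17, 5.80 and 5.09 on proliferative arrays. It rose by 3.89 ± 0.72 (limma adjusted p = 0.0131, or 0.0851 with arrays 3 and 4 averaged). DKK4, a Dickkopf protein that binds LRP5 and LRP6, read 7.52, 8.77, 9.53 and 9.70 on hypertrophic arrays, against 5.04, 5.21, 4.75 and 5.23 on proliferative arrays, and rose by 3.82 ± 0.42 (limma adjusted p = 0.00147).

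The Wnt deacylase NOTUM rose by 2.29 ± 0.21 (limma adjusted p = 6.02e-04), with a second probe set in the same direction. TCF7L2, a transcription factor at the end of the Wnt pathway, rose by 2.01 ± 0.22 (limma adjusted p = 0.00133) by the brightest of its 5 probe sets, of which 2 passed. DKK4, NOTUM and TCF7L2 still passed with arrays 3 and 4 averaged (limma adjusted p = 0.0227, 0.00726 and 0.0171). SOST, which encodes sclerostin, lay below background in both groups, with a difference of 0.076 ± 0.14 (limma adjusted p = 0.828).

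**Figure D4:**
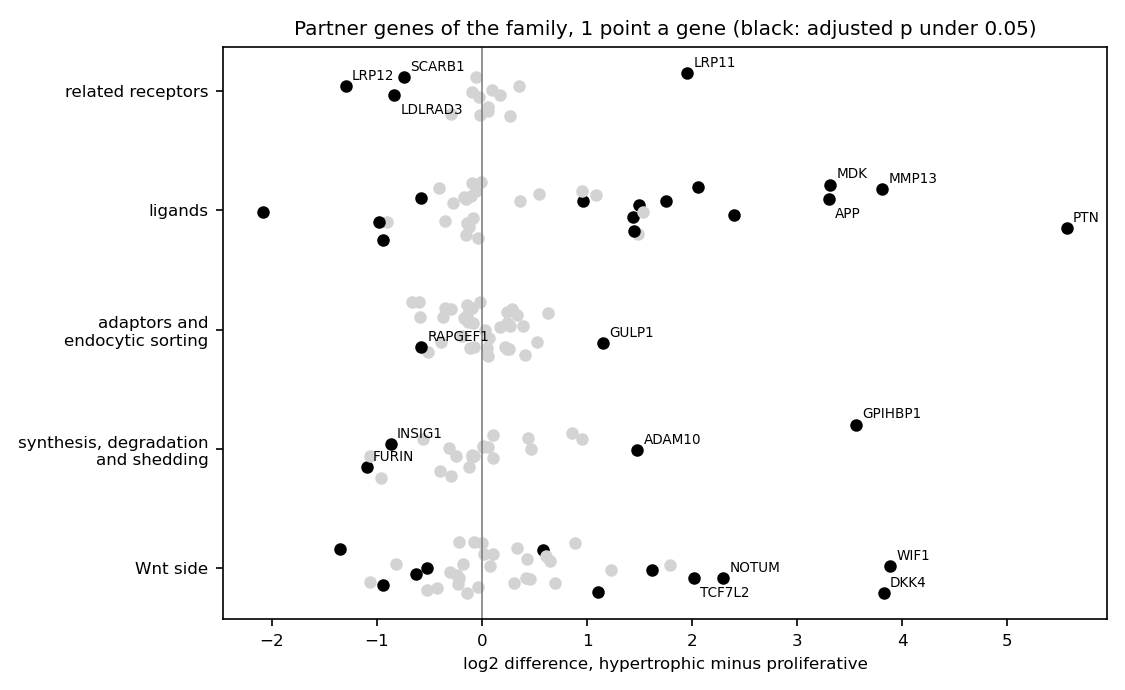
Log2 difference, hypertrophic minus proliferative, of the 152 measured partner genes in 5 lists (rows), 1 point a gene by its brightest probe set, spread vertically for visibility, black where the limma adjusted p is under 0.05 and grey otherwise. Among the ligands 15 of 37 points are black, with PTN farthest right at 5.56, and among adaptors and endocytic sorting genes 2 of 37 are black.

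The genes whose pattern over the 8 arrays lay nearest to LRP8 were found by the root mean square distance, after each gene was centred on its own mean, among 13008 other genes. CDC45, a replication helicase factor, was nearest at 0.303 log2 units, followed by PROSER2 at 0.326, B4GALNT4, a glycosyltransferase, at 0.340, the adenylyl cyclase ADCY2 at 0.348 and PAMR1 at 0.352, against a root mean square of 1.27 for the LRP8 pattern itself. Their differences ran from -2.31 to -2.07. For LRP4, the ephrin receptor EPHB1 was nearest at 0.179, followed by the ubiquitin protease USP40 at 0.190, MST1 at 0.244, the homeobox gene DBX2 at 0.251 and CD99 at 0.253, against 0.995 for LRP4 itself. Their differences ran from 1.62 to 1.87, and the proliferative mean of DBX2 lay below background. These distances describe 8 arrays in 2 groups and are dominated by the difference between the groups.

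**Figure D5:**
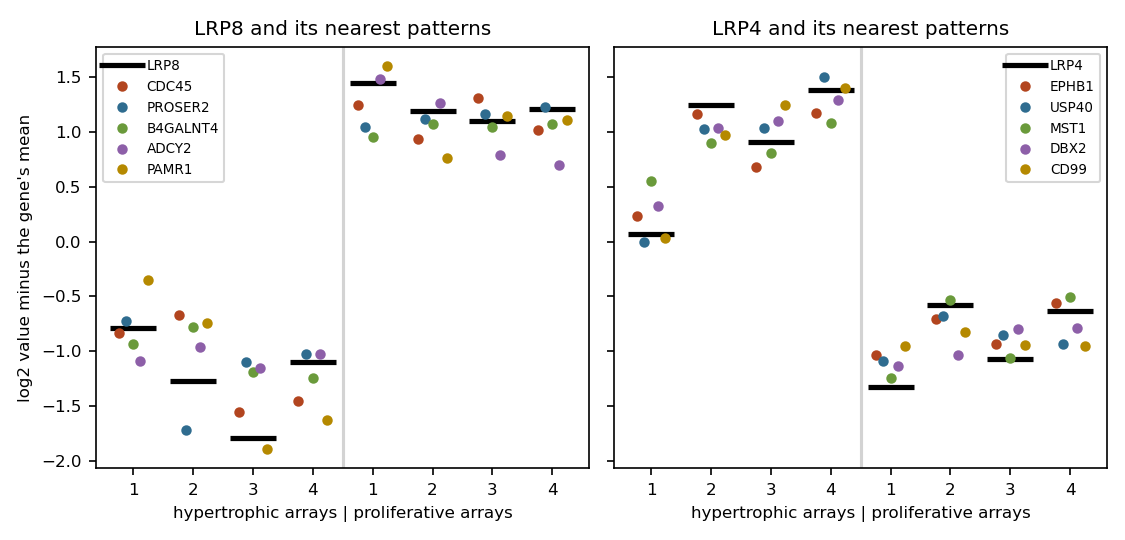
Log2 value minus the gene's own mean (vertical axis) on hypertrophic arrays 1 to 4 (left) and proliferative arrays 1 to 4 (right of each panel) for LRP8 and LRP4 (black bars) and the 5 nearest genes of each (coloured points, shifted sideways for visibility). On hypertrophic array 1 LRP4 and its nearest genes lie between the rest of their group and the proliferative arrays.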

How the data were processed

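The values are log2 intensities per probe set of 8 Affymetrix chicken arrays, which the authors deposited after RMA (background correction, quantile normalisation, probe set summary), named in the submitters' processing notes. Its software version is not given in the sources used here, and the number of arrays limits the precision. Deposited values run from 2.52 to 14.7. The 96 control probe sets were left out, and annotation symbols were brought up to date through gene identifiers in RefSeq's table for GRCg7b: of 38439 probe sets, 27168 have 1 symbol, 177 several and 11094 none. The brightest probe set (mean of the 8 arrays) stands for a gene. Probe sets were fitted with lmFit and eBayes (limma 3.58.1, R 4.3.3, two-sided, Benjamini-Hochberg over 38439 probe sets, threshold 0.05). This fit was tested on simulated arrays with independent errors. That test cannot show how the likeness of arrays 3 and 4 affects the p-values. The members, lists and alternatives were chosen with earlier results of these data known. Partner genes are named as the up to 4 largest differences past the threshold in a list, plus RELN, DAB1, MESD, SOST and DKK1; some genes of the rule are not reported here. Alternatives covered a dim filter, 3 normalisations, variance model, array weights, blocks, pairs of arrays, averaging and omission of arrays, and averaging of probe sets. Marker lists for osteoblasts, osteoclasts and macrophages, red cells and absorptive epithelium had 1 of 8, 3 of 9, 0 of 3 (by limma, 1 at an unadjusted p under 0.05) and 1 of 4 measured genes higher in hypertrophic cells. Of all genes, 7.34% were higher.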

Additional observations from a re-analysis of the deposited data

Results flagged for a closer look

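Of 92 groups of 4 arrays examined over the 25 probe sets of the family and the brightest probe sets of the named partner genes, 6 held an array that stood apart, its gap to the next array, as a share of the group's range, exceeding Dixon's 95% critical value. Chance flags about 1 in 20 such groups. In the family these were a dim LRP2 probe set on hypertrophic array 1, at 4.70 against 4.15 to 4.17 (gap of 0.967 of the range), another LRP2 probe set on proliferative array 4, at 4.10 against 3.69 to 3.75 (0.854), the second LRP5 probe set on proliferative array 1, at 5.16 against 5.49 to 5.55 (0.837), and the second LRP6 probe set on hypertrophic array 2, at 4.61 against 4.87 to 4.89 (0.929). Among partners they were LDLRAD3 on hypertrophic array 2, at 5.10 against 5.69 to 5.78 (0.861), and INSIG1 on proliferative array 1, at 12.8 against 12.5 (0.841).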

How the results depend on the processing

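Over 20 alternatives the difference of LRP8 ran from -2.62 to -2.29, that of LRP4 from 0.58 to 2.08 and that of VLDLR from 0.55 to 1.86, given as a description, since these values chose the family. All 9 members kept their sign in every alternative that gave a value, by the brightest or the averaged probe sets. The count of family genes higher, 2, was 1 with the replicate block and with probe sets averaged, 0 with arrays 3 and 4 averaged and with arrays 1 and 2 only (limma; 2 and 1 at an unadjusted p under 0.05), and 1 to 3 without 1 array. The count lower, 1, was 2 with array weights and with arrays centred on ribosomal proteins, and 1 without any 1 array. Partner genes higher, 22, were 34 with array weights, 11 with arrays 3 and 4 averaged, 40 with arrays 3 and 4 only, and 17 to 28 without 1 array. Partner genes lower, 14, were 26 with array weights, 22 with arrays 1 and 2 against 3 and 4 as a block, 3 with arrays 3 and 4 averaged, 3 with arrays 1 and 2 only, 28 with arrays 3 and 4 only, and 4 to 14 without 1 array, the fewest without proliferative array 3 or 4. The replicate block left 24 partner genes higher and 12 lower. Shares of all genes past the threshold were computed for the main fit and with arrays 3 and 4 averaged only. The family and partner counts under the other alternatives, and at an unadjusted p, thus have no share beside them, and nothing about these genes is read from their changes. Same-numbered arrays deviated together with correlations of 0.153, 0.011, 0.222 and -0.0087, which cannot decide whether the numbers pair the arrays. Unlike numbers reached 0.320 (hypertrophic array 2 with proliferative array 1) and 0.265 (hypertrophic array 3 with proliferative array 4). Between arrays 1 or 2 of one group and arrays 3 or 4 of the other, all correlations were negative, from -0.352 to -0.042. Each group was centred on its own mean, so positive correlations with some arrays must be offset by negative ones with others. The negative values are thus not a separate result. The sign turned with probe sets averaged for RELN (0.60) and DAB1 (0.076), and for SOST with arrays centred on ribosomal proteins (-0.015), with arrays 3 and 4 only (-0.021) and when 1 array was left out (-0.020 to 0.183, the lowest without proliferative array 1). For LRP2 and LRP4 the averaged probe sets gave -0.094 and 0.58, and the causes were not tested. Signal near background limits LRP1, LRP2, LRP6 and SORL1, as well as VLDLR on proliferative arrays 3 and 4 and the dimmer LRP4 probe sets.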
